A study of Mus musculus with 30 samples.

Results

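Retinas of mice heterozygous for the E168d2 allele of *Crx* were compared with wild-type (WT) retinas at postnatal day 21 (P21), and the members are the 3 *E168d2/+* and 3 WT libraries of that age, 6 of the 30 libraries of the series. A gene was tested if it reached 5 CPM (reads of a gene scaled to the library's reads on all genes) in all 3 libraries of either genotype, which 11936 of the 12573 genes in the table did. E168d2 is a knock-in frameshift allele whose truncated CRX protein still binds DNA and acts against the normal protein, and *E168d2/+* mice carry 1 normal and 1 mutant copy in all cells. Each library was made from whole retina, 4 pooled retinas of a male and a female, on a C57BL6/J background, and the P21 WT mice were littermates of *Crx* mutants. Both genotypes carry the 450M variant of *Rpe65*, as the study describes for all its lines. *E168d2/+* and WT libraries from P10, 3 of each, and 3 libraries of *E168d2neo/+* at P21 were used for comparison. *E168d2neo/+* carries the same frameshift, but an intronic neo cassette left in the locus lowers the amount of mutant protein.

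CRX is a homeodomain transcription factor of rods, cones and some bipolar cells. It binds short sites with the core TAATCC near photoreceptor genes and, together with the rod factor NRL and other partners, raises their transcription while rods and cones build their outer segments. In the outer segment, light-activated pigment switches on the G protein transducin, transducin switches on a phosphodiesterase that degrades cGMP, and the fall in cGMP closes a cation channel. Guanylate cyclases and their calcium-binding activators restore cGMP afterwards. Rods and cones use largely separate genes for these steps.

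The 300-base promoter windows of 4 genes are printed as examples that differ in the CRX core, and no test rests on them. *Guca1a* and *Gnat2* encode phototransduction proteins of rods and cones. *Crx* is the mutated gene itself, and *Col4a4* stands head to head with the gene that rose most. The windows come from RefSeq on GRCm38.p6, 250 bases before to 50 after the start, at chr17:47400557-47400856 on the minus strand for *Guca1a*, chr3:108092816-108093115 on the plus strand for *Gnat2*, chr7:15879906-15880205 on the minus strand for *Crx* and chr1:82586800-82587099 on the minus strand for *Col4a4*. Capitals mark TAATCC or its reverse complement GGATTA, each printed as read 5′ to 3′ on the gene's strand.
Guca1a: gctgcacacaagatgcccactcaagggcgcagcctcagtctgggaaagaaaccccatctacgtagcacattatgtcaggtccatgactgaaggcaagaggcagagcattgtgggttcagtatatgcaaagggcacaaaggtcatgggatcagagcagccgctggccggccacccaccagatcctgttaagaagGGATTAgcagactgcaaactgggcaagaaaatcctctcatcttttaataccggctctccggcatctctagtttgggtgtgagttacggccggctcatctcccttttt
Gnat2: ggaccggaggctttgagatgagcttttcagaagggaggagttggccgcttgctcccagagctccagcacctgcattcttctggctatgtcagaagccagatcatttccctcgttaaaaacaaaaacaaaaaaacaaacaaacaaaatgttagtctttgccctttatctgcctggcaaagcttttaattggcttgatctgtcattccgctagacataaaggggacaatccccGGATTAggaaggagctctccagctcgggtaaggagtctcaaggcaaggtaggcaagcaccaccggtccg
Crx: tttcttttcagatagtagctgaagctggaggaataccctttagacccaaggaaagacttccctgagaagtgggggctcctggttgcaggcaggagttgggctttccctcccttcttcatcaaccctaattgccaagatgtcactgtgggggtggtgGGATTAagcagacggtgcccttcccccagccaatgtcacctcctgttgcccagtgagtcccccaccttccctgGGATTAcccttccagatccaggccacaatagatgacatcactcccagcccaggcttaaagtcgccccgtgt
Col4a4: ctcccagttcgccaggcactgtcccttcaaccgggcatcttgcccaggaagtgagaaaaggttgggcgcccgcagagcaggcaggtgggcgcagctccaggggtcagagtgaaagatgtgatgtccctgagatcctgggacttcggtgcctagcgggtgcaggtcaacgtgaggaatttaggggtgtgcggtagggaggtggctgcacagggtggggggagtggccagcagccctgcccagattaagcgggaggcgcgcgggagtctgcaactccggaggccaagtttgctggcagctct
The window held the core once in *Guca1a* and once in *Gnat2*, 2 times in *Crx* and 0 times in *Col4a4*. Of all tested genes with a window in the table, 603 of 8481 (7.11%) held the core on either strand, against 2320 of 32851 (7.06%) of all windows. Among rod phototransduction genes 8 of 14 windows (57.1%) held it, and among cone phototransduction genes 1 of 7 (14.3%), that of *Gnat2*. By the rule for called genes given below, 15 of 91 windows (16.5%) of genes called lower held it. Of genes called higher 1 of 25 (4%) did. These shares describe letters in a window and carry no test.

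The libraries held an estimated 20.03 to 23.43 M reads on genes in WT and 18.30 to 19.96 M reads in *E168d2/+*, taken from the CPM that 1 read is worth, which made all 403 to 748 values under 100 reads in a library whole within 0.1 read. *E168d2/+* replicate B stood apart from the other mutant libraries. On a scale where 0 is the mean of the other mutant libraries, A and C, and 1 is the WT mean, replicate B had a median of 0.46 over 188 genes that were lower in A and C than in WT, and 187 of them had B between the mutant and WT levels. Over the 73 genes that were higher in A and C the median was 0.48, and B lay between for all 73. The same measure for replicate A was -0.31 and -0.20, and for replicate C -0.14 and -0.33, with the other mutant libraries again taken as 0. For this reason the leading genes and most gene lists are given with and without replicate B. Other values are from all libraries. Of the 188 genes named by rule 130 passed the FDR, and 0 of these lost it or changed direction without B. Since B lay nearer to WT, leaving it out favours this outcome. Leaving out any other library lost 23 to 48 of the genes. What sets replicate B apart was not tested.

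**Figure D1:**
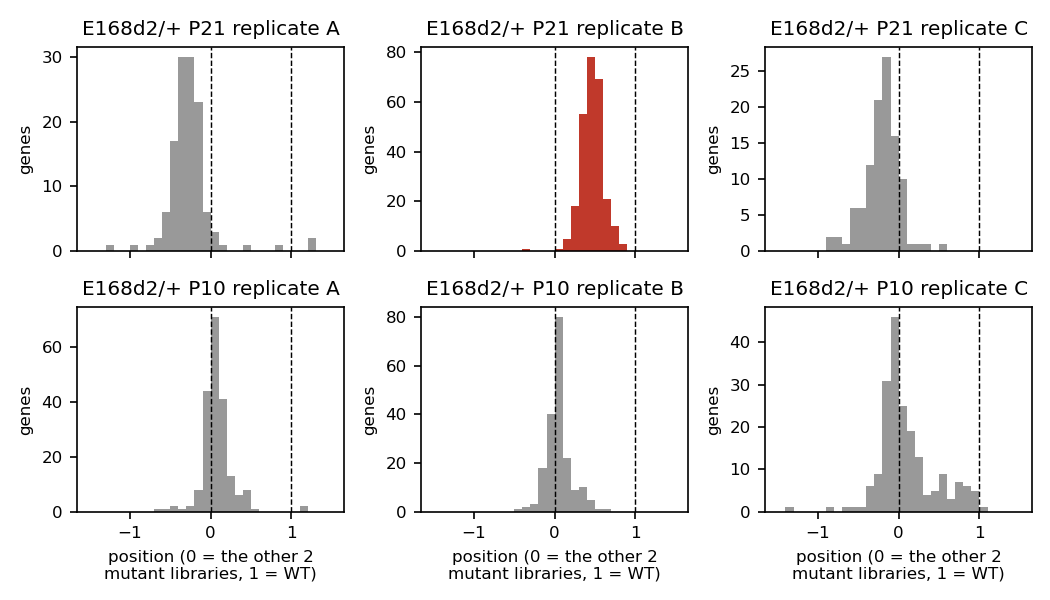
Histograms of the position of each *E168d2/+* library between the other mutant libraries of its age (0 on the horizontal axis) and the WT mean (1), both marked by dashed lines, on linear CPM, with the number of genes on the vertical axis, P21 above and P10 below, P21 replicate B in red, and values past either end put in the end bars. The genes are those called when that library was left out, lower and higher genes together, and at P21 the medians of replicate B were 0.46 for lower genes and 0.48 for higher genes, while those of A and C were below 0.

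Some libraries also differed in genes of other tissues. Summed over 13 pigment epithelium and melanocyte markers, the WT libraries A, B and C measured 350.0, 669 and 538 CPM and the *E168d2/+* libraries 891, 534 and 235 CPM, so the groups overlapped. The defining marker *Rpe65* measured 19.4, 19.8 and 5.76 CPM in WT and 25.9, 21.1 and 11.8 CPM in *E168d2/+*, and 0 of 12 tested markers passed the test given below. Over 5 blood genes the sum was 275 CPM in WT replicate B and 30.0 to 131 CPM in the other libraries. *Xist*, the RNA that silences an X chromosome in females, measured 3.05, 1503 and 1638 CPM in WT replicates A, B and C and 1879.5, 1479 and 1815 CPM in the mutant replicates. The low value of WT replicate A goes against its description as a pool of a male and a female. Y-linked genes were present in all 6 libraries. Without WT replicate A, 161 genes were called in place of 188.

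Between the genotypes, 137 genes were lower in *E168d2/+* (1.15% of those tested) and 51 higher (0.427%) at a false discovery rate (FDR, limma with Benjamini-Hochberg adjustment) of 0.05 or less and a fold change of 2 or more, the rule for a called gene. Of the 137, 56 fell at least 3-fold and 27 at least 4-fold. The genes that fell were expressed at a median of 46.0 CPM in WT, and 41 of them were above 100 CPM. The genes that rose had a median of 10.6 CPM in WT, 35 of the 51 were under 20 CPM there and 15 rose at least 4-fold. WT and mutant libraries did not overlap for any of the called genes. By comparison, groups did not overlap for 1262 of all tested genes in the lower direction (10.6%) and for 3622 in the higher direction (30.3%). Without replicate B, 188 genes were called lower (1.57%) and 73 higher (0.609%), and these 261 genes (2.18%) included all 188 genes of the 6 libraries. As replicate B lay nearer to WT, its omission favours such an inclusion. Of the 73 genes called without B alone, 58 passed the FDR in the 6 libraries at a smaller fold change.

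At the FDR alone, 667 genes were lower (5.59%) and 1419 higher (11.9%). Most of these differences were small, and their split depended on how libraries were scaled: genes higher in the mutant made up 68.0% with CPM as deposited, 39.3% with the libraries scaled to the median log2 ratio (911 lower, 589 higher) and 49.1% after quantile normalization (792 lower, 763 higher). The median log2 ratio over all tested genes was 0.08. Without replicate B the FDR alone gave 933 lower (7.78%) and 2508 higher (20.9%). In the text below a gene rose or fell if it passed this FDR. The counts are smaller when another library is left out, down to 107 called without *E168d2/+* replicate C and to 115 without WT replicate C.

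*Crx* itself, at chr7:16451296-16465317 on the minus strand of mm9, rose. It measured 1151, 1149 and 1107 CPM in WT replicates A, B and C and 1829.9, 1611 and 1788 CPM in the *E168d2/+* replicates in the same order. The log2 ratio was 0.62 ± 0.07 (SE) with FDR 0.0018, and 0.67 with FDR 4.8e-05 without replicate B. All mutant libraries lay above all WT libraries, and replicate B was the lowest of the mutants. Reads of the normal and the mutant copy were counted together, so the share of each is not known from these values.

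Genes of rod phototransduction fell as a group at P21, most by less than 2-fold. Of the 20 listed members, all tested, 17 fell and 0 rose, 4 of them by 2-fold or more. Their median log2 ratio was -0.69, beside 0.08 over all genes tested, and -0.81 without replicate B, where 18 fell. The summed level of the list was 37899 to 38918 CPM in WT, and in *E168d2/+* it was 23610, 31609 and 26263 CPM in replicates A, B and C. Since whole retina was measured, fewer rods and less RNA per rod cannot be told apart.

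*Rcvrn*, at chr11:67508828-67516835 on the plus strand of mm9, had the lowest log2 ratio of the rod genes. It encodes recoverin, the calcium sensor that restrains the kinase of the light-activated pigment. It measured 862, 957 and 962 CPM in WT and 115, 513 and 165 CPM in *E168d2/+*. The log2 ratio was -2.12 ± 0.44 (SE) with FDR 0.014, and -2.75 with FDR 4.0e-06 without replicate B. No mutant library reached the lowest WT library, but replicate B held over 3 times the level of A or C. *Rcvrn* lies within the longer gene *Glp2r* on the opposite strand, and as the protocol used random primers and the counting's strand setting is not stated, reads of overlapping genes cannot be told apart.

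The other 3 genes of the rod list called at 2-fold belong to the guanylate cyclase system. Of them *Guca1b* is classed as rod-enriched in the paper's supplement. *Guca1a* and *Gucy2e* are classed there as neither rod-enriched nor cone-enriched. *Guca1a* and *Guca1b* encode the proteins that activate guanylate cyclase when calcium drops, and they lie 1592 bases apart on chromosome 17. *Guca1a* measured 497, 431 and 428 CPM in WT and 118, 220.1 and 119 CPM in *E168d2/+*. *Guca1b* measured 884, 799 and 925 CPM in WT and 132, 428 and 160.4 CPM in *E168d2/+*. The mutant mean was 33.7% of the WT mean for *Guca1a* and 27.6% for *Guca1b*. The log2 ratio of *Guca1a* was -1.63 ± 0.21 (SE) with FDR 0.0034, and -1.93 with FDR 9.2e-07 without replicate B. That of *Guca1b* was -2.06 ± 0.35 (SE) with FDR 0.0079, and -2.57 with FDR 7.7e-07 without replicate B. Both retinal guanylate cyclases fell as well. *Gucy2e* measured 624, 664 and 639.6 CPM in WT and 219, 467 and 256 CPM in *E168d2/+* (log2 -1.11, FDR 0.014, and -1.44, FDR 4.0e-06, without replicate B). *Gucy2f* went from 255 ± 15.1 to 142 ± 42.4 CPM (mean ± SD, n = 3, log2 -0.89, FDR 0.01, and -1.12, FDR 6.1e-06, without replicate B).

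The transducin, phosphodiesterase and channel genes of rods fell by smaller amounts. *Gnat1*, the rod transducin alpha subunit, measured 9788, 10527 and 10217 CPM in WT and 5251, 8451 and 6523 CPM in *E168d2/+* (log2 -0.62, FDR 0.027, and -0.80, FDR 8.9e-04, without replicate B). Its gamma subunit *Gngt1* had a log2 ratio of -0.72 (FDR 0.021), while the beta subunit *Gnb1*, used in many cell types, measured 4772, 4777 and 4647 CPM in WT and 4332, 4442 and 4789 CPM in the mutant (log2 -0.07, FDR 0.54). The 3 rod phosphodiesterase subunits fell unequally. The inhibitory subunit *Pde6g* was at 58.4% of WT (log2 -0.81, FDR 0.013, and -1.03, FDR 2.3e-05, without replicate B), the catalytic subunit *Pde6a* at 67.5% (log2 -0.58, FDR 0.0073) and its partner *Pde6b* at 82.9% (log2 -0.27, FDR 0.026). The differences between the subunits were not tested.

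Of the cGMP-gated channel, the beta subunit *Cngb1* fell to 58.7% of WT (log2 -0.79, FDR 0.006, and -0.95, FDR 2.7e-05, without replicate B) and the alpha subunit *Cnga1* to 72.5% (log2 -0.47, FDR 0.011). *Slc24a1*, the exchanger that extrudes calcium from the rod outer segment, fell to 60.3% (log2 -0.75, FDR 0.0076). Among the genes that end the response, the kinase *Grk1* was at 62.8% (log2 -0.68, FDR 0.0055), the anchor protein *Rgs9bp* at 61.6% (log2 -0.71, FDR 0.0046), the GTPase activator *Rgs9* at 83.03% (log2 -0.27, FDR 0.042) and arrestin, *Sag*, at 79.6% (log2 -0.33, FDR 0.038). For every one of these genes the mutant libraries lay below the WT libraries. *Gnb5*, the partner of RGS9, was at 101% of WT (FDR 0.94). *Pdc*, phosducin, which binds transducin beta and gamma, was at 78.7% with FDR 0.056 in the 6 libraries and 2.9e-04 without replicate B. Leaving out WT replicate B left 9 of the 17 rod genes past the FDR, the fewest of any library left out.

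The cone genes of the same pathway fell further. Of 11 listed members, 8 fell, all of them by 2-fold or more, 1 rose and 2 did not pass the test. The median log2 ratio was -1.49, and -1.88 without replicate B with the same counts. Their summed level was 1873 to 1977 CPM in WT, and 883, 1335 and 932 CPM in *E168d2/+* replicates A, B and C. Leaving out WT replicate C left 4 of the 8 past the FDR. As with rods, fewer cones and less RNA per cone cannot be told apart in whole retina. The paper, citing earlier histology, describes severe cone loss at an early age in *E168d2/+* retinas, before rods are lost. Numbers of rods and cones were not measured in these libraries.

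Both cone pigment genes fell. *Opn1sw*, the short-wavelength opsin, measured 377, 423 and 349 CPM in WT and 80.4, 169 and 67.2 CPM in *E168d2/+* (log2 ratio -1.98 ± 0.28 (SE) with FDR 0.0046, and -2.37 with FDR 1.5e-06 without replicate B). *Opn1mw*, the medium-wavelength opsin at chrX:71372803-71396099 of mm9, measured 229, 222 and 229 CPM in WT and 28.5, 129.5 and 36.8 CPM in *E168d2/+* (log2 ratio -2.14 ± 0.45 (SE) with FDR 0.015, and -2.802 with FDR 7.7e-07 without replicate B). For both, replicate B held the highest mutant level and lay below all WT libraries.

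Cone transducin, phosphodiesterase and the channel alpha subunit were also called lower. *Gnat2*, the alpha subunit of cone transducin, measured 164, 164 and 156 CPM in WT and 35.5, 86.7 and 34.5 CPM in *E168d2/+* (log2 -1.76, FDR 0.0074, and -2.199, FDR 2.1e-07, without replicate B), and the gamma subunit *Gngt2* was at 42.9% of WT (log2 -1.27, FDR 0.0059). *Pde6h*, the inhibitory subunit of the cone phosphodiesterase, measured 117, 110.4 and 117 CPM in WT and 9.53, 54.2 and 11.9 CPM in *E168d2/+* (log2 -2.64, FDR 0.013, and -3.42, FDR 3.5e-07, without replicate B), and the catalytic subunit *Pde6c* was at 48.6% (log2 -1.08, FDR 0.0048). *Cnga3*, the channel alpha subunit, measured 15.8, 17.8 and 18.8 CPM in WT and 0.412, 10.98 and 0.902 CPM in *E168d2/+* (log2 -3.296, FDR 0.039, and -4.61, FDR 9.1e-06, without replicate B). In replicates A and C *Cnga3* was below 1 CPM, whereas replicate B kept over 10 CPM. *Arr3*, cone arrestin, fell from 269 ± 23.1 to 105 ± 54.7 CPM (mean ± SD, n = 3, log2 -1.49, FDR 0.013, and -1.88, FDR 6.2e-05, without replicate B).

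*Cngb3*, the beta subunit of the same cone channel, moved the other way. It measured 23.1, 25.3 and 24.8 CPM in WT and 75.5, 61.7 and 66.6 CPM in *E168d2/+*. The log2 ratio was 1.47 ± 0.08 (SE) with FDR 8.7e-05, and 1.54 with FDR 6.0e-06 without replicate B. Every mutant library had over 2 times the level of any WT library, and replicate B was again the mutant library nearest to WT. *Gnb3* (103% of WT, FDR 0.63) and the exchanger *Slc24a2* (99.6%, FDR 0.95) did not pass the test.

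**Figure D2:**
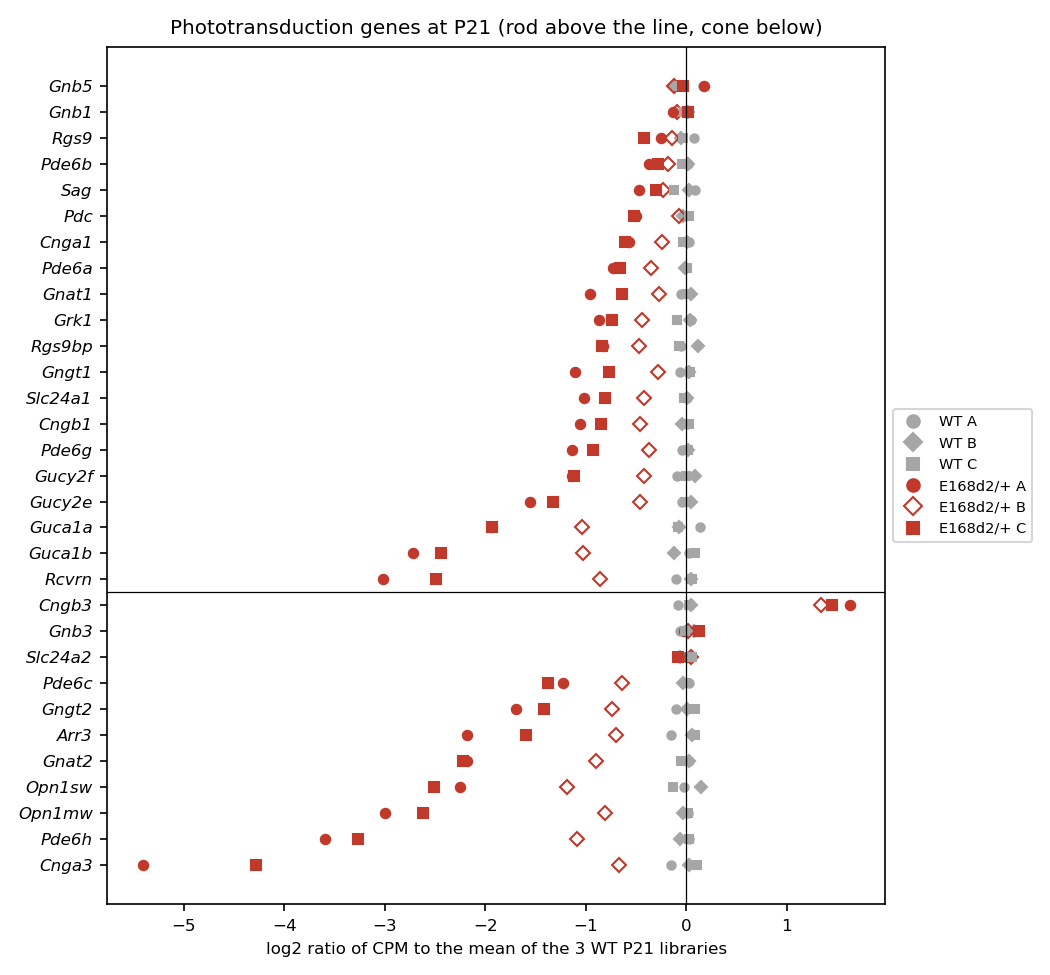
Level of each tested rod and cone phototransduction gene in the 3 *E168d2/+* libraries at P21, as log2 ratio of CPM to the WT mean on the horizontal axis, with the WT libraries in grey; 1 row per gene. Replicate B lies to the right of A and C for most genes that fell, and *Cngb3* lies to the right of 0 in all 3 mutant libraries.

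In the visual cycle, which regenerates the chromophore, 4 of 7 photoreceptor genes fell and 1 rose. *Rdh12*, a retinol dehydrogenase of the inner segment, was called lower and measured 382, 360.4 and 368 CPM in WT and 139, 264 and 155 CPM in *E168d2/+* (log2 -1.05, FDR 0.01, and -1.33, FDR 2.5e-06, without replicate B). *Rbp3*, the retinoid carrier of the space around the outer segments, was at 72.96% of WT (log2 -0.46, FDR 0.0072), the disc transporter *Abca4* at 76.7% (log2 -0.39, FDR 0.017) and the outer segment dehydrogenase *Rdh8* at 71.8% (log2 -0.51, FDR 0.042). *Rdh10*, an enzyme that oxidises retinol, was at 139% and rose (log2 0.48, FDR 0.03). *Rdh11* and *Crabp1* did not pass the test (FDR 0.35 and 0.3).

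Among genes of outer segment structure and of the connecting cilium more fell than rose. Of 43 tested members, 14 fell and 4 rose, with a median log2 ratio of -0.18, and without replicate B 24 fell and 4 rose. Over all tested genes 5.59% fell and 11.9% rose, or 7.78% and 20.9% without replicate B. The share of the list that rose was not above these. *Prph2*, which shapes the disc rim, measured 3011, 2983 and 2987 CPM in WT and 1702, 2043 and 1876 CPM in *E168d2/+* (log2 -0.68, FDR 0.0024, and -0.74, FDR 8.1e-05, without replicate B). Its partner *Rom1* was at 76.3% of WT (log2 -0.39, FDR 0.0053, and -0.38, FDR 0.0025, without replicate B), and replicate B was not set apart for *Rom1*, with 1201, 1222 and 1309 CPM in A, B and C. *Fscn2*, the photoreceptor fascin that bundles actin, fell to 27.7% (log2 -1.95, FDR 0.0046, and -2.33, FDR 6.0e-06, without replicate B) and the motor *Myo7a* from 98.5 ± 5.05 to 49.5 ± 12.5 CPM (log2 -1.02, FDR 0.0046). *Aipl1*, a chaperone for the phosphodiesterase, was at 65.5% (log2 -0.61, FDR 0.003). In the other direction *Prom1*, prominin of the growing discs, measured 873, 867 and 861 CPM in WT and 1701, 1327 and 1648 CPM in *E168d2/+* (log2 0.84, FDR 0.002, and 0.95, FDR 5.5e-06, without replicate B). The photoreceptor cadherins *Cdhr1* (log2 0.23) and *Pcdh15* (0.18) and the cilium gene *Rpgr* (0.50) also rose.

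Transcription factors of photoreceptors moved in both directions. Of 22 tested, 7 fell (*Nrl*, *Thrb*, *Esrrb*, *Mef2c*, *Sall3*, *Rax* and *Rxra*) and 6 rose (*Crx*, *Otx2*, *Neurod1*, *Prdm1*, *Samd7* and *Nr2f2*), and the median log2 ratio was -0.10. Without replicate B 9 fell and 6 rose. *Mef2c* was the 1 factor called at 2-fold. It measured 66.3, 63.7 and 66.8 CPM in WT and 11.7, 39.8 and 12.8 CPM in *E168d2/+* (log2 -1.85, FDR 0.014, and -2.41, FDR 5.1e-07, without replicate B). *Nrl*, the factor that makes a photoreceptor precursor a rod, measured 1551, 1419 and 1436 CPM in WT and 1153, 1152 and 1245 CPM in *E168d2/+* (log2 -0.31, FDR 0.013, and -0.29, FDR 0.011, without replicate B). *Nr2e3*, which acts with NRL, overlapped between the genotypes at 799.6, 593 and 581 CPM in WT and 768, 621 and 802 CPM in the mutant (FDR 0.43). *Esrrb* was at 69.6% of WT (log2 -0.53, FDR 0.0085), *Sall3* at 56.2% (log2 -0.83, FDR 0.0052) and *Thrb*, the thyroid hormone receptor of green cones, at 82.2% with FDR 0.0497, just inside the limit.

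Of the factors that rose, *Otx2*, which acts upstream of *Crx*, measured 234, 219 and 219 CPM in WT and 305, 274 and 297 CPM in *E168d2/+* (log2 0.38, FDR 0.0055, and 0.42, FDR 7.5e-04, without replicate B). *Prdm1*, which favours photoreceptors over bipolar cells, was at 162% of WT (log2 0.69, FDR 0.0039), *Samd7* at 163% (log2 0.71, FDR 0.031) and *Neurod1* at 119.9% (log2 0.26, FDR 0.023). Over the 15 factors past the FDR without replicate B, the median position of replicate B on the scale above was 0.29, with 0.47 for rod phototransduction genes and 0.41 for cone genes.

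Genes of the photoreceptor synapse and of inner segment channels fell. Of 24 tested, 15 fell and 0 rose, with a median log2 ratio of -0.38, and 18 fell without replicate B. *Cabp4*, a calcium-binding regulator of the synaptic calcium channel, measured 129, 141 and 155 CPM in WT and 21.1, 80.00 and 32.02 CPM in *E168d2/+* (log2 -1.898, FDR 0.013, and -2.44, FDR 1.7e-05, without replicate B). *Elfn1*, the adhesion protein of rod synapses, was at 41.8% of WT (log2 -1.36, FDR 0.011, and -1.74, FDR 1.8e-06, without replicate B) and the potassium channel *Kcnj14* at 45.9% (log2 -1.198, FDR 0.012, and -1.49, FDR 1.9e-04, without replicate B). Smaller falls included the calcium channel subunit *Cacna2d4* (log2 -0.72, FDR 0.008), the scaffold *Dlg4* (log2 -0.94, FDR 0.0062) and the potassium channel subunit *Kcnv2* (log2 -0.67, FDR 0.01). Leaving out WT replicate C left 8 of the 15 past the FDR. 

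Among metabolic genes used by photoreceptors, 12 of 24 fell and 1 rose, with a median log2 ratio of -0.19, and 12 fell and 3 rose without replicate B. *Hk2*, the hexokinase of photoreceptor glycolysis, measured 278, 362 and 417 CPM in WT and 88.6, 191 and 124 CPM in *E168d2/+* (log2 -1.44, FDR 0.0076, and -1.73, FDR 2.6e-04, without replicate B). *Nxnl1*, the gene of rod-derived cone viability factor, was at 49.2% of WT (log2 -1.08, FDR 0.0089). *Impdh1*, which makes guanine nucleotides, had a log2 ratio of -0.49 (FDR 0.0056) and the lipid regulator *Ppara* one of -0.92 (FDR 0.0085). *Ppargc1b*, a coactivator for mitochondrial genes, rose (log2 0.46, FDR 0.0067). Of the 12 genes of the mitochondrial genome tested, 0 passed the FDR.

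Few markers of the other retinal neurons passed the test. For every gene list, above or below, the shares to compare with are those over all tested genes. These are 5.59% that fell and 11.9% that rose, or 7.78% and 20.9% without replicate B. Of 18 bipolar markers 0 fell and 3 rose, among them *Isl1* and *Otx2* (log2 0.32 and 0.38). Without replicate B 4 fell and 3 rose, and with median log2 ratio scaling of all 6 libraries 3 fell and 1 rose. Of 11 amacrine and 11 ganglion cell markers 0 passed the FDR, and of 6 horizontal cell markers *Calb1* fell (log2 -0.35, FDR 0.023), with the same counts without replicate B. The amacrine marker *Pax6*, for example, measured 435, 427 and 431 CPM in WT and 470.1, 454 and 439.7 CPM in *E168d2/+*. The summed markers overlapped between the genotypes for amacrine, horizontal and ganglion cells. A p that misses the limit does not show that these genes were the same.

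Glial and stress genes moved by differing amounts. Of 14 Müller glia markers 2 rose (*Aqp4* and *Gpr37*), 4 without replicate B and 0 with median scaling. The list of glial reaction and photoreceptor stress had 2 of 12 genes that rose, and 4 without replicate B. Its median log2 ratio was 0.32, beside 0.08 over all genes tested, and 0.31 without replicate B. The highest ratio in the list was 1.61, and 2.08 without replicate B. *Stat3*, a signal transducer of gliosis, measured 80.9, 79.3 and 81.3 CPM in WT and 127, 95.2 and 116 CPM in *E168d2/+* (log2 0.47, FDR 0.013, and 0.59, FDR 1.9e-04, without replicate B), and ceruloplasmin, *Cp*, was at 129.6% of WT (log2 0.37, FDR 0.0055). *Gfap*, the filament protein of reactive glia, measured 14.7, 13.7 and 19.6 CPM in WT and 21.6, 16.8 and 21.5 CPM in *E168d2/+* (FDR 0.16, and 0.0491 without replicate B). *Cdkn1a*, a cell cycle inhibitor induced by damage, measured 16.05, 8.59 and 9.35 CPM in WT and 88.6, 17.2 and 24.4 CPM in *E168d2/+*, with the high value in replicate A alone (FDR 0.061, and 0.014 without replicate B). Of 6 microglia and immune genes 0 passed. In the list of cell death and the unfolded protein response, 3 of 19 genes passed, 1 lower and 2 higher, and 8 passed without replicate B, 2 lower and 6 higher. The pro-apoptotic *Bcl2l11* rose to 162% of WT (log2 0.68, FDR 0.0098), and *Herpud1* rose to 128% (log2 0.35, FDR 0.032).

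Of 18 clock genes 7 rose and 0 fell, among them *Per3*, *Cry2*, *Nr1d1*, *Nr1d2*, *Tef* and *Hlf*. *Tef*, an output regulator of the clock, measured 266, 274 and 292 CPM in WT and 405, 358 and 395 CPM in *E168d2/+* (log2 0.47, FDR 0.0039, and 0.53, FDR 2.7e-04, without replicate B). Without replicate B 9 rose and 0 fell, and with median scaling 3 of the 7 passed. The list as a whole had a median log2 ratio of 0.24. Immediate early genes were divided, with 5 of 13 lower and 4 higher, and 4 lower and 4 higher without replicate B. *Nr4a1* was called lower at 38.8, 46.7 and 52.6 CPM in WT and 19.2, 29.8 and 19.9 CPM in *E168d2/+* (log2 -1.02, FDR 0.0074), *Ier3* fell to 47.2% of WT (log2 -1.28, FDR 0.041, and -1.81, FDR 4.4e-06, without replicate B) and *Egr1* was called higher at 47.6, 44.99 and 85.8 CPM in WT and 127, 97.2 and 138 CPM in the mutant (log2 1.07, FDR 0.016). The heat shock genes *Hspa1a* and *Hspa1b*, named after their values were seen, were called lower (log2 -1.15 and -1.23). Of 13 vessel markers the tight junction gene *Cldn5* fell (log2 -0.55, FDR 0.016), 4 fell without replicate B and 5 with median scaling. Of 2 tested lens genes *Cryab*, also a gene of glia, rose (log2 0.33, FDR 0.013), and of 3 blood genes 0 passed. Of 5 sex-linked genes the Y-linked *Ddx3y* and *Eif2s3y* were higher in the mutants (log2 0.32, FDR 0.026, and log2 0.51, FDR 0.032), and 0 passed with median scaling.

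**Figure D3:**
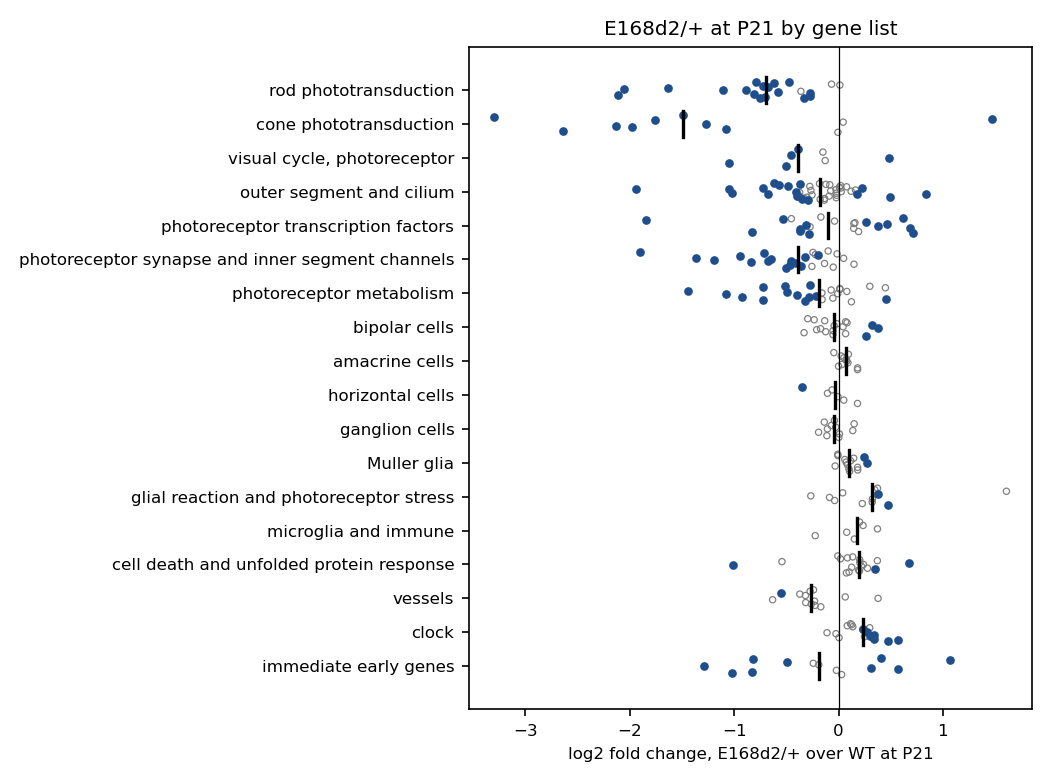
Log2 ratio of *E168d2/+* to WT at P21 on the horizontal axis for the tested members of 18 gene lists, 1 point per gene, filled in blue at an FDR of 0.05 or less and open in grey otherwise, with the median of each list as a black bar and a thin line at 0. The median was -1.49 for cone phototransduction, -0.69 for rod phototransduction and -0.38 for synapse and inner segment channels, and it lay near 0 for amacrine, horizontal and ganglion cell markers.

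The largest falls were in genes that replicates A and C had nearly lost. *Zan*, zonadhesin, measured 88.9, 77.3 and 93.1 CPM in WT and 0.669, 37.9 and 1.05 CPM in *E168d2/+* (log2 ratio -4.74 ± 1.19 (SE) with FDR 0.029, and -6.52 with FDR 2.5e-07 without replicate B). The noncoding gene *A930006I01Rik* measured 38.7, 32.5 and 43.97 CPM in WT and 0.412, 19.5 and 0.651 CPM in *E168d2/+* (log2 -4.28, FDR 0.032, and -5.95, FDR 7.3e-07, without replicate B). *Slc17a4* and *Slc17a3*, neighbouring genes of phosphate transporters 37023 bases apart on chromosome 13, had log2 ratios of -3.97 and -3.52 (FDR 0.031 and 0.019), and of -5.44 and -4.68 without replicate B (FDR 1.5e-05 and 2.8e-06). In all 4 of these genes replicate B stood between the other mutants and WT. Fold changes of genes near 0 CPM depend on the 0.1 CPM added before taking logarithms.

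*Aqp1*, a water channel, measured 81.4, 88.6 and 96.99 CPM in WT and 8.19, 43.8 and 1.75 CPM in *E168d2/+* (log2 -3.34, FDR 0.034, and -4.503, FDR 3.9e-04, without replicate B). *Alpl*, alkaline phosphatase, measured 169, 191 and 194 CPM in WT and 12.3, 102 and 14.3 CPM in *E168d2/+* (log2 -2.805, FDR 0.022, and -3.78, FDR 1.9e-07, without replicate B). The receptor gene *Tnfrsf8* measured 6.68, 8.29 and 11.7 CPM in WT and 0.103, 4.699 and 0.2 CPM in *E168d2/+* (log2 -3.72, FDR 0.034, and -5.15, FDR 9.1e-06, without replicate B). In each case replicates A and C were lower than replicate B, and replicate B was lower than all WT libraries. The other 5 of the 12 largest falls were *Cnga3*, described above, and *Gm16862*, *Gm11961*, *Olfr1372-ps1* and *Gm15983*, with log2 ratios from -3.62 to -2.704, and from -4.81 to -3.799 without replicate B.

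The largest rises, like the largest falls, were taken from called genes whose groups did not overlap. *Col4a3*, a collagen IV chain, measured 17.1, 15.7 and 13.96 CPM in WT and 257, 175 and 283 CPM in *E168d2/+*. The log2 ratio was 3.901 ± 0.16 (SE) with FDR 1.8e-05, and 4.11 with FDR 1.9e-07 without replicate B, and the mutant mean was 15.3 times the WT mean. Its neighbour *Col4a4* measured 12.3, 12.6 and 11.5 CPM in WT and 39.8, 29.6 and 42.5 CPM in *E168d2/+* (log2 1.59, FDR 5.0e-04, and 1.75, FDR 4.4e-06, without replicate B). Both genes start from the same stretch of chromosome 1 in opposite directions, 71 bases apart, with *Col4a4* at chr1:82447298-82583424 and *Col4a3* at chr1:82583496-82718634 of mm9. The collagen IV chains of the X chromosome, *Col4a5* and *Col4a6*, had log2 ratios of 0.39 and 0.30 and did not pass the test (FDR 0.12 and 0.17, and 0.0474 and 0.17 without replicate B).

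*Col16a1*, another collagen, measured 5.83, 6.39 and 7.38 CPM in WT and 83.5, 54.97 and 103 CPM in *E168d2/+* (log2 ratio 3.56 ± 0.20 (SE) with FDR 8.7e-05, and 3.81 with FDR 7.3e-07 without replicate B). *Gm12802* measured 1.34, 1.198 and 1.58 CPM in WT and 21.5, 14.6 and 23.7 CPM in *E168d2/+* (log2 3.74, FDR 7.9e-05, and 3.95, FDR 1.9e-06, without replicate B), and overlaps *2210012G02Rik* (log2 1.31, FDR 7.9e-04). *Irf5*, an interferon regulatory factor, measured 2.29, 1.45 and 1.92 CPM in WT and 16.9, 8.09 and 14.4 CPM in *E168d2/+* (log2 2.69, FDR 0.0014, and 3.01, FDR 2.5e-05, without replicate B). The noradrenaline transporter *Slc6a2* measured 1.88, 1.298 and 1.41 CPM in WT and 12.5, 8.197 and 13.2 CPM in *E168d2/+* (log2 2.79, FDR 5.0e-04, and 3.01, FDR 1.7e-05, without replicate B). These genes were at or below 7.38 CPM in every WT library. *Gm12802*, *Irf5* and *Slc6a2* were below 5 CPM in WT, so they were tested only because every mutant library reached the filter of 5 CPM. *Ckm*, the muscle creatine kinase (log2 2.81, FDR 5.0e-04), overlaps *A930016O22Rik*, and the potassium channel gene *Kcng1* had a log2 ratio of 2.41 (FDR 0.0012). *Gm13384*, *Gm16197*, *Gm1614*, *Akr1b8* and *Pdzrn4* made up the rest of the 12 largest rises, with log2 ratios from 2.72 to 3.77. The WT means of *Ckm*, *Kcng1*, *Gm13384*, *Gm16197*, *Akr1b8* and *Pdzrn4* were also below 5 CPM, from 0.62 to 2.93 CPM. These genes too were tested only through the mutant libraries, and their ratios rest on WT values near 0 CPM.

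**Figure D4:**
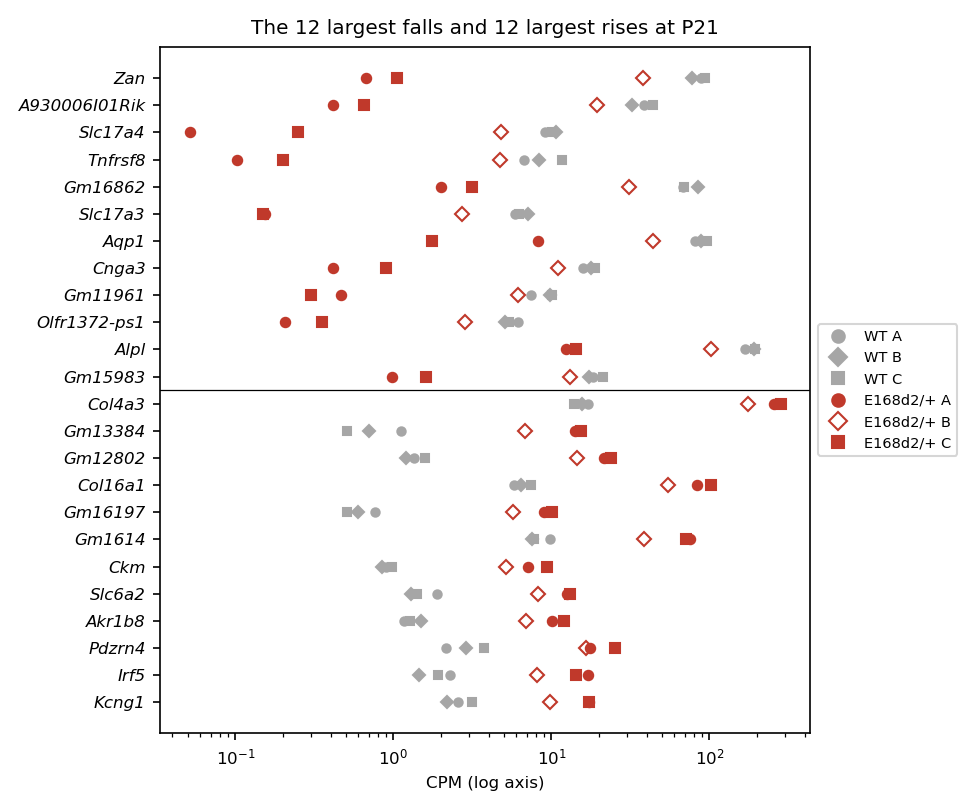
CPM in each library, on a log axis, for the 12 largest falls and the 12 largest rises among called genes at P21, with WT in grey and *E168d2/+* in red (circle A, open diamond B, square C), falls above the line and rises below it. For the falls replicate B lies between WT and the other mutant libraries, and for *Col4a3* the mutant libraries hold 175 to 283 CPM against 13.96 to 17.1 CPM in WT.

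The paper's supplement classes genes as rod-enriched or cone-enriched from earlier published data on *Nrl-/-* retinas. Of 256 tested rod-enriched genes 134 fell and 21 rose, with 53 called lower and 7 called higher and a median log2 ratio of -0.37. Of 362 tested cone-enriched genes 50 fell and 67 rose, with 21 called lower and 12 called higher and a median of 0.06. Without replicate B the rod-enriched genes had 155 lower and 30 higher, and the cone-enriched genes 63 lower and 98 higher. The 21 cone-enriched genes called lower included 8 of the phototransduction genes above, and *Cngb3* was among the 12 called higher. Other cone-enriched genes that were called higher included *Bach2*, a transcriptional repressor, at 11.97, 13.2 and 12.7 CPM in WT and 63.4, 41.3 and 61.4 CPM in *E168d2/+* (log2 2.099, FDR 3.3e-04, and 2.297, FDR 7.7e-07, without replicate B), and *Rgs22* (log2 2.09, FDR 5.0e-04), *Kif19a* (log2 1.72, FDR 0.0014) and *Chrnb4*, a nicotinic receptor subunit (log2 1.25, FDR 8.8e-04). Among the rod-enriched genes *Shisa2* was called higher at 21.6, 22.8 and 29.4 CPM in WT and 77.8, 69.8 and 75.6 CPM in *E168d2/+* (log2 1.604, FDR 3.3e-04, and 1.65, FDR 4.3e-05, without replicate B), as were *Col4a3*, *Col4a4* and *5430407P10Rik* (log2 1.93, FDR 0.0018). Leaving out WT replicate C left 68 of the rod-enriched genes lower and 23 of the cone-enriched.

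Some called genes lay close together on a chromosome. Of the 188 called genes 182 were placed on mm9, and 20 pairs lay within 50000 bases, 8 of them overlapping. Of the 12 pairs that do not overlap, 11 moved in the same direction, beside 59.4% of all pairs of the 182 genes, most of which fell. For the 8 overlapping pairs reads cannot be told apart. *Cabp4* and the receptor gene *Gpr152* start 174 bases apart on chromosome 19, with log2 ratios of -1.898 and -2.61 (-2.44 and -3.305 without replicate B). *Opn1mw* and *Tex28* lie 183 bases apart on the X chromosome, with -2.14 and -2.39 (-2.802 and -2.96 without replicate B). *Ttyh2* and *Kif19a* on chromosome 11 (1.38 and 1.72) are a further example. The exception was *Rhbdf2* (1.01) and *Gm11744* (-1.09), 26514 bases apart.

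The P10 libraries gave an independent measure of the same genotype at an earlier age. There 131 genes were called lower (1.09%) and 60 higher (0.498%) of 12049 tested. Of the 137 genes called lower at P21, 74 were also called lower at P10, 54.0% of the P21 set and 56.5% of the P10 set. Of the 51 called higher, 21 were called at both ages, 41.2% and 35.0%. At the FDR alone, 98 of 108 P21-lower genes tested at P10 were lower there too and 0 were higher, against a background of 9.53% of all genes lower. Of 45 P21-higher genes tested at P10, 40 were higher and 0 lower, against a background of 12.2%. The median log2 ratio of the lower genes was -1.45 at P21 and -1.27 at P10, and that of the higher genes 1.33 and 0.95. At P10 replicate B did not stand apart, with medians of 0.034 and -0.0049 on the position scale, whereas P10 replicate C had a median of 0.297 over 76 higher genes, 60 of them between the other mutant libraries and WT, and -0.050 over lower genes.

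How many phototransduction genes passed the test of a difference between ages depended on the libraries used. Over all genes tested, 1.24% had a lower ratio at P21 and 2.33% a higher one, or 2.31% and 4.9% without P21 replicate B. With all 12 libraries 1 of 20 rod genes and 1 of 11 cone genes passed. Without P21 replicate B 6 rod genes (4 with a lower ratio at P21 and 2 with a higher one) and 4 cone genes (2 and 2) passed. Without P10 replicate C 3 rod genes (1 and 2) and 3 cone genes (2 and 1) passed, while 846 genes passed over all genes tested, against 443 with all 12 libraries. *Rcvrn* had a log2 ratio of -3.54 at P10, when it measured 549.7, 547 and 565 CPM in WT and 60.7, 53.5 and 33.4 CPM in *E168d2/+*, and -2.12 at P21 (FDR of the difference 0.16, and 0.08 without replicate B). *Gnat1* had -2.16 and -0.62 (FDR of the difference 0.066, and 0.078 without replicate B). The rod gene that passed with all libraries was *Rgs9bp*, at -0.04 at P10 and -0.71 at P21 (difference -0.66, FDR 0.019, and -0.78, FDR 8.1e-04, without replicate B). The cone gene was *Arr3*, with a ratio of -3.25 at P10 and -1.49 at P21 (difference 1.76, FDR 0.019, and 1.37, FDR 0.0031, without replicate B). Past the FDR without replicate B alone were lower ratios at P21 of *Gnat2* (difference -0.82, FDR 1.2e-05), *Gngt1* (-0.77, FDR 0.0019), *Guca1a* (-0.61, FDR 0.0099), *Pdc* (-0.42, FDR 0.016) and *Gngt2* (-0.59, FDR 0.044). Higher ratios were those of *Pde6h* (1.305, FDR 0.0032), *Guca1b* (0.67, FDR 0.013) and *Gnb5* (0.49, FDR 0.0473). *Aipl1* also came nearer to WT, from -1.496 to -0.61 (difference 0.88, FDR 0.0088). A p that misses the limit here does not show that the ages were alike.

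**Figure D5:**
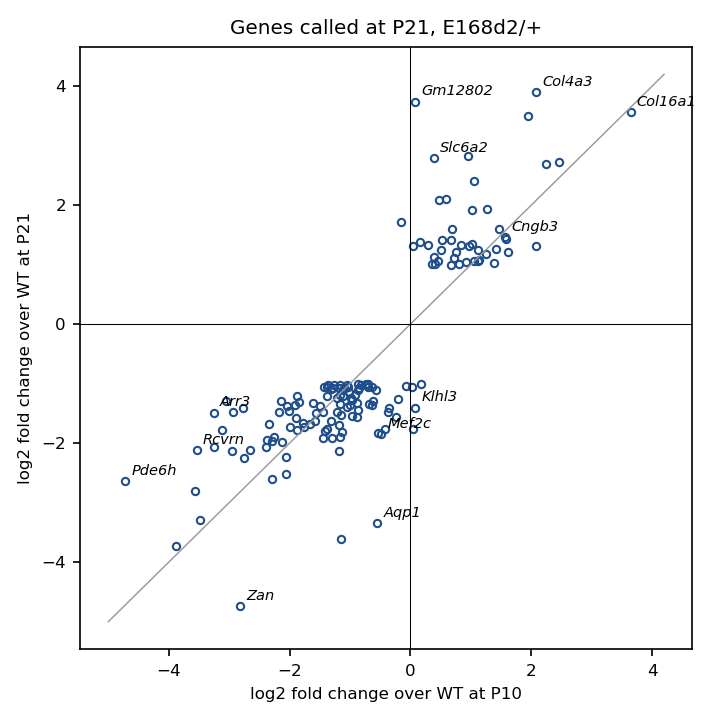
Log2 ratio of *E168d2/+* to WT at P10 (horizontal axis) and at P21 (vertical axis) for genes called at P21 and tested at both ages, 1 point per gene, with the grey line of equal change and some genes labelled; 1 lower gene that is not reported here is not drawn. Of the 108 lower genes 104 had the same sign at P10, and of the 45 higher genes 44 did.

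Some genes changed in their ratio to WT between the ages. Of 12390 genes tested for a difference between ages, 154 had a lower ratio at P21 (1.24%) and 289 a higher one (2.33%) at the FDR, and without replicate B 286 (2.31%) and 608 (4.9%). The called genes were chosen on the same P21 values, so their counts here are a description. Among the 51 genes called higher at P21, 19 had a higher ratio at P21 than at P10 and 1 a lower one. Among the 137 called lower, 6 had a lower ratio at P21 and 5 a higher one. *Col4a3* rose at both ages and more at P21, with 7.96, 3.74 and 5.49 CPM in WT and 22.3, 27.5 and 20.97 CPM in *E168d2/+* at P10 (difference 1.82, FDR 0.0071). *Gm12802* fell with age in WT, from 39.4, 39.7 and 39.4 CPM at P10 to 1.34, 1.198 and 1.58 CPM at P21, and stayed higher in the mutant, at 42.8, 40.4 and 41.4 CPM and then 21.5, 14.6 and 23.7 CPM (difference 3.67, FDR 4.3e-07).

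Other genes came nearer to the WT level by P21 or moved away from it. *Psd2*, an exchange factor for ARF GTPases, measured 256, 257 and 266 CPM in WT and 53.4, 53.7 and 51.7 CPM in *E168d2/+* at P10, and 55.00, 41.3 and 49.1 and 37.4, 41.3 and 34.4 CPM at P21 (difference 1.94, FDR 1.5e-06). *Pax7*, a homeobox gene, measured 16.5, 17.3 and 17.6 CPM in WT and 0.0474, 0.126 and 0.107 CPM in the mutant at P10 and was at or under 0.25 CPM in all 6 libraries at P21. *Klhl3*, a ubiquitin ligase adaptor, did not pass the test at P10 (log2 0.08, FDR 0.67) and measured 30.5, 30.8 and 31.4 CPM in WT and 10.3, 15.8 and 9.62 CPM in *E168d2/+* at P21 (difference -1.48, FDR 0.0027). *Rxrg*, a nuclear receptor that holds back a cone opsin, was higher in the mutant at P10 (log2 1.31) and did not pass at P21 (0.19, difference -1.12, FDR 0.0065). P10 WT mice are not described as littermates, so the source of the WT mice and age cannot be told apart in these differences.

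The comparison with *E168d2neo/+* at P21 asked where more of the same mutant protein went with a further change. It shares the *E168d2/+* libraries with the comparison above. Of 11904 genes tested 69 were lower (0.58%) and 219 higher (1.84%) in *E168d2/+* at the FDR, and without replicate B 502 were lower (4.2%) and 1223 higher (10.2%). The counts also depended on the *E168d2neo/+* libraries. In place of 288 genes, 8, 12 and 40 passed without *E168d2neo/+* replicates A, B and C. With a block for the replicate letter 53 passed. *Crx* measured 1128, 1069.8 and 1213 CPM in *E168d2neo/+* and was higher in *E168d2/+* (log2 0.62, FDR 0.0091, and 0.67, FDR 4.9e-04, without replicate B). *Cngb3* measured 44.2, 44.4 and 44.6 CPM in *E168d2neo/+* and was higher in *E168d2/+* (log2 0.61, FDR 0.0093), as was *Col16a1*, which measured 7.57, 8.04 and 6.73 CPM (log2 3.37, FDR 1.5e-04).

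For phototransduction genes the comparison turned on replicate B. *Rcvrn* measured 598, 638 and 597 CPM in *E168d2neo/+*, below all WT and above all *E168d2/+* libraries, with a log2 difference of -1.52 and FDR 0.08 in the 6 libraries and -2.15 with FDR 2.8e-05 without B. Of the 20 rod phototransduction genes 1 was lower in *E168d2/+* than in *E168d2neo/+* in the 6 libraries, *Guca1b* (log2 -1.57, FDR 0.05), and of the cone genes 0 were lower. Without replicate B 16 of the 20 rod genes and 8 of the 11 cone genes were lower. *Opn1mw*, at 120.3, 113 and 118 CPM in *E168d2neo/+*, had FDR 0.14 with replicate B and 1.7e-05 without it. Lower in *E168d2/+* with all 3 libraries were *Prph2* (log2 -0.54, FDR 0.018), *Hk2* (-1.37, FDR 0.033) and *Nrl* (-0.33, FDR 0.034).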

How the data were processed

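RNA-seq of whole retina was analysed in 6 P21 libraries, WT and *E168d2/+*, with P10 and *E168d2neo/+* libraries for comparison. The authors sequenced 42-base single reads from randomly primed cDNA. For the authors, TopHat2 2.0.5 served for alignment to mm9, HTSeq 0.6.1p1 for counts on UCSC gene models and edgeR 3.6.8 for tests. The paper describes poly(A) selection and the labels also name removal of ribosomal RNA, and which applies was not settled. The deposited CPM give the reads of a gene per library total on genes, with no scaling between libraries by the authors. In the main comparison the libraries summed to 991755 to 992436 CPM. Columns were mapped by name, and 0 columns of per-sample values were left unused. The authors' columns of fold changes, mean log2 CPM, p-values and FDR hold their own comparisons and were not used. Symbols of 20 genes had become dates and are not named. Some genes that the rule for named genes picks are not reported here.

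The test was limma 3.58.1 in R 4.3.3 on log2(CPM + 0.1), two-sided and moderated with a variance trend, in a separate fit for each comparison, and p-values were adjusted by Benjamini-Hochberg over all genes tested. Genes entered at 5 CPM or more in all 3 libraries of either group. The difference between ages was the interaction of genotype and age in 12 libraries. Replicates are separate pools of animals. In data simulated with a fixed depth and a fixed spread, 100% of 200 genes changed by 1 or 2 in log2 were recovered among 11909 genes. The spread was not fitted to these libraries, and no simulated library stood apart as replicate B does. The share recovered in the main comparison is therefore not known from it.

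The members and gene lists were chosen with earlier results of these data known. Named genes are the 12 largest falls and rises among called genes without overlap, the lists of phototransduction, visual cycle and transcription factors, up to 6 genes of each other list, genes the paper names for P21 and the 8 leading genes in each direction of the other comparisons. Other genes named in the text, such as *Cdkn1a*, *Gfap*, the X-linked collagen IV genes and chromosomal neighbours, were chosen after their values were seen. Gene positions are from GENCODE M1 on mm9, and promoter windows from RefSeq on GRCm38.p6, and no coordinates were converted between them. Tables and figures were made in Python 3.11.15 (numpy 2.4.6, pandas 2.3.3, matplotlib 3.10.9). Each of these settings was tried in place of the main one: a pseudocount of 1 or 0.01 CPM, a CPM filter of 1 or no filter, scaling to the median log2 ratio, quantile normalization, a fit of all P21 groups, limma without a trend, a block for the replicate letter, and the omission of each library in turn.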

Additional observations from a re-analysis of the deposited data

Results flagged for a closer look

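The ratio of *E168d2/+* to WT differed between P10 and P21 for 41 of the named genes. The test was the interaction of genotype and age in limma, at an FDR of 0.05 or less. The named genes include the leading genes of this same test in each direction, so part of the count was fixed by that choice. Over all 12390 genes tested, 1.24% had a lower ratio at P21 and 2.33% a higher one. Each difference below is the log2 ratio at P21 minus that at P10, so a positive value means that the mutant stood higher relative to WT at P21. All 41 kept an FDR of 0.05 or less without replicate B. The groups of 3 libraries are too small for a search for single deviating samples.

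Photoreceptor genes made up part of these. Those with a positive difference were *Arr3* (1.76), *Aipl1* (0.88), *Pias3* (0.46), *Prom1* (0.49), *Ppargc1b* (0.83) and *Cln3* (0.90). Those with a negative difference were *Rgs9bp* (-0.66), *Rxrg* (-1.12) and *Fhod3* (-0.43). *Cln3*, a lysosomal membrane gene, was lower than WT at P10 (log2 -1.04) and had a ratio of -0.14 at P21 (FDR 0.26).

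Some of the largest rises at P21 had positive differences: *Gm12802* (3.67), *Slc6a2* (2.40), *Akr1b8* (2.08), *Gm1614* (1.87), *Col4a3* (1.82), *Gm16197* (1.55) and *Kcng1* (1.36). They were chosen on the P21 values that enter the difference, so the choice itself favours a positive sign. Others of the largest rises did not pass, among them *Col16a1* (-0.08, FDR 0.89), *Ckm* (0.75, FDR 0.39) and *Gm13384* (0.46, FDR 0.73). The rod-enriched *Shisa2* (0.91) and the cone-enriched *Rgs22* (1.61), *Bach2* (1.51) and *Chrnb4* (0.74) were higher than WT at both ages and more so at P21. The cone-enriched *Kif19a* (1.87), *2210012G02Rik* (1.26) and *Crybg3* (0.60) did not pass the test at P10 (FDR 0.071, 0.53 and 0.07) and were higher at P21. *Bach2*, for example, measured 34.7, 34.3 and 34.6 CPM in WT and 50.6, 50.6 and 54.96 CPM in *E168d2/+* at P10, and its level at P21 was 11.97, 13.2 and 12.7 CPM in WT and 63.4, 41.3 and 61.4 CPM in *E168d2/+*.

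*Psd2* (1.94) and *Pax7* (5.35) were lower than WT at P10. *Tbc1d8* (0.73) changed from -0.37 at P10 to 0.35 at P21, and *Btbd17* (1.35) was below the filter at P21. *Nr2f2* (0.43) went from 0.03 to 0.46.

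Other genes with a negative difference included the rod-enriched *Klhl3* (-1.48) and *Tac2* (-1.88), the neurokinin B gene. *Cltb* (-1.05), *Cpne7* (-0.97), *Gm16055* (-1.58), *Slc7a2* (-1.24) and *Aldh1a7* (-1.25) were higher than WT at P10 and not called at P21. *Tln2* (-0.46), the vessel gene *Cldn5* (-0.70), the water channel *Aqp4* of Müller glia (-0.95), the horizontal cell gene *Calb1* (-0.46), the amacrine gene *Calb2* (-0.39) and the ganglion cell gene *Sncg* (-0.39) complete the set. The FDR of *Calb2* was 0.0498, at the limit. Pigment epithelium and melanocyte genes were higher in the mutant at P10 for 5 of 10 tested and for 0 of 12 at P21, and their part in these differences was not tested.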

How the results depend on the processing

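Over the settings that kept all 6 libraries, 169 to 206 genes were called in place of 188, and the calls at P10 and the genes called higher at P21 stayed within 1.5 times of their main counts under every setting run. Leaving out 1 library in turn gave 107 to 261 called genes, 64 to 188 called lower and 633 to 3441 at the FDR alone. The called counts were 107 without *E168d2/+* replicate C, 125 without A and 261 without B, and 161, 136 and 115 without WT replicates A, B and C. The difference between ages held for 443 genes, 894 without P21 *E168d2/+* replicate B, 846 without P10 *E168d2/+* replicate C, 402 without P21 *E168d2/+* replicate A and 156 to 247 without any other library, and the comparison with *E168d2neo/+* from 8 to 1725, 1725 of them without *E168d2/+* replicate B. With median scaling that comparison gave 174 genes. The replicate letters do not mark shared animals, and deviations of libraries of the same letter correlated at 0.21, 0.11 and 0.087 for A, B and C, so no pairing was assumed. With a replicate block 191 genes were called and 2933 passed the FDR, and the comparison with *E168d2neo/+* gave 53.

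Of the 188 named genes, each under 15 settings, 0 changed direction with a call. In 249 results a gene lost the FDR that it passed in the main fit, and in 31 a gene newly passed it. Most losses came with fewer libraries: 48 of the genes without WT replicate B, 46 without WT replicate C, 44 without *E168d2/+* replicate C, 31 without WT replicate A, 23 without *E168d2/+* replicate A and 0 without replicate B. Of the settings that kept all libraries, limma without a trend lost 23, median scaling 16 and quantile normalization 14. Fewer libraries leave fewer degrees of freedom, so a loss there does not show a smaller difference. The planned count test was not run: with 20 to 41 values up to 20 reads in a library of the main comparison, fewer than the 100 asked for, the reads of all genes were not taken as recovered, and the read totals are estimates for the same reason. Genes under 5 CPM were not tested, and at 18.30 to 23.43 M reads the ratios of genes near 0 CPM depend on the pseudocount.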
